A study of Mus musculus with 39 samples.

Results

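The nuclear genes for subunits of the oxidative phosphorylation chain were followed through the development of mouse cerebellar granule cells. They were chosen by symbol: protein-coding genes named Ndufa, Ndufb, Ndufc, Ndufs or Ndufv with a number, Sdha to Sdhd, Uqcr, Cox4 to Cox8 or Atp5, without pseudogenes. The rule took 83 of the 24100 genes in the count table: 36 for complex I, 4 for complex II, 8 for complex III, 18 for complex IV and 17 for complex V. It leaves out subunits with other symbols, such as Cycs, Cyc1 and Ndufab1, which are described among the other genes of the pathway, and the subunits that the mitochondrial genome encodes were not analysed here.

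The chain sits in the inner mitochondrial membrane. Complex I (NADH dehydrogenase) and complex II (succinate dehydrogenase, also an enzyme of the citric acid cycle) pass electrons to coenzyme Q, complex III passes them to cytochrome c, and complex IV (cytochrome c oxidase) passes them to oxygen, while complexes I, III and IV pump protons that drive the ATP synthase, complex V. Most subunits have nuclear genes, and several subunits of complex IV exist as a widespread form and as forms known from muscle, lung or testis. Neurons spend much of their ATP on ion gradients, and granule cells are the most numerous neurons of the cerebellum.

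All mice of the TRAP and inhibitor experiments were C57Bl/6J. TRAP (translating ribosome affinity purification) pulls down an EGFP-tagged ribosomal protein L10a with its mRNA from the cells that express the transgene. Math1 TRAP at postnatal day 7 (P7) came from isolated granule cell progenitors of Tg(Atoh1-Egfp-L10a) mice (n = 4), and Neurod1 TRAP came from whole cerebellar lysates of Tg(NeuroD1-Egfp-L10a) mice at P7, P12 and P21 (n = 5 at each age), with 1 library of total cerebellar RNA, the input, at each age. Granule cells of P6 to P7 mice were sequenced when freshly isolated (DIV0, days in vitro), after 2 days with DMSO and after 5 days with DMSO or with 100 nM UNC1999, an inhibitor of the histone H3K27 methyltransferases EZH2 and EZH1 (n = 2 each). Cells of P7 mice were also cultured for 5 days from Ezh1(wt/wt);Atoh1-Cre (n = 5) and Ezh1(cKO/cKO);Atoh1-Cre mice (n = 4), both with Cre expressed from the Atoh1 promoter of progenitors, on a strain not given in the sources used here. The labels do not say which replicates are separate animals or cultures, so p-values measure the spread between libraries, which may be technical.

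The promoters of 68 members were found in RefSeq's table for GRCm38.p6, each from 250 bases before to 50 bases after the annotated start. They were searched on both strands for the letters of 4 factors known to bind promoters of respiratory chain genes. GCGCATGCG (NRF1) was in 8 of the 68, or 11.8%, against 2.77% of 16366 genes with a promoter. AAGATGGCG (YY1) was in 7, or 10.3%, against 2.28%, and CCGGAAGT (ETS factors such as GABPA) in 5, or 7.4%, against 5.99%. TCAAGGTCA (estrogen-related receptors) was in 2, or 2.9%, against 0.35%. At least 1 of the 4 was in 21, or 30.9%, against 10.75% of all genes. A promoter with matches to several motifs, such as that of Uqcr11, counts under each.

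Stretches of 5 such promoters, 120 bases before to 30 bases from the start, are printed 5′ to 3′ on the strand of the gene, with capitals on the matched letters. Cox8a (chr19:7217587-7217736, minus strand) is shown as the member with the largest rise from P7 to P21, with ETS letters; Uqcr11 (chr10:80406792-80406941, minus strand) as the largest in complex III, with ETS and NRF1 letters; Atp5k (chr5:108434370-108434519, minus strand) and Ndufa11 (chr17:56717642-56717791, plus strand) for their NRF1 letters; and Atp5g2 (chr15:102671018-102671167, minus strand) because it has the same NRF1 letters and rose least among the members of complex V that rose.
Cox8a: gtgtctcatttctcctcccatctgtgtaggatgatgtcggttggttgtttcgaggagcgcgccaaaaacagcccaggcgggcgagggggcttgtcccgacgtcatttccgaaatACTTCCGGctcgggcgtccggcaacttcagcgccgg
Uqcr11: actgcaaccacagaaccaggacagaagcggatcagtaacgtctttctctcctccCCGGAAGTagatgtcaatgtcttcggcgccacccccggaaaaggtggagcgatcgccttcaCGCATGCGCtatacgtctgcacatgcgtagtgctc
Atp5k: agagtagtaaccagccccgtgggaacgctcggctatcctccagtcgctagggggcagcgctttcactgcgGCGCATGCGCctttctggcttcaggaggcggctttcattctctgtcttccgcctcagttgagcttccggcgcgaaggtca
Ndufa11: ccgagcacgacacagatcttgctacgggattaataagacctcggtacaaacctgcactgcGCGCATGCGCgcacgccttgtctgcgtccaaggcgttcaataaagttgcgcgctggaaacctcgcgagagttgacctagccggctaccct
Atp5g2: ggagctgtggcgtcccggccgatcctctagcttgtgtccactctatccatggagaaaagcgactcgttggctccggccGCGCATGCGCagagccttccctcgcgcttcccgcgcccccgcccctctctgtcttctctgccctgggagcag
A match describes the letters only. The members with NRF1 letters had a median log2 fold change of 1.55 from P7 to P21 (8 members), beside 1.44 in those without (58), those with ETS letters 1.80 (5) beside 1.44 (61), and those with YY1 letters 1.35 (7) beside 1.46 (59). The 2 with the letters of estrogen-related receptors had a median of 0.83, beside 1.46 (64).

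Libraries held 12.1 to 38.5 M counts. Levels are CPM scaled by TMM within a fit (scaled CPM), so TRAP and culture levels are not on 1 scale. Of the markers fixed for mature granule cells 16 of 16 rose in Neurod1 TRAP from P7 to P21, and 20 of 20 cell cycle genes fell. Summed markers of Purkinje cells also rose there, from 198–283 to 812–964 scaled CPM (7 of 8 genes higher), and of oligodendrocytes from 301–400 to 692–1171 (8 of 12 higher and 3 lower), with no Purkinje or oligodendrocyte marker at 0 in those libraries. In the P21 input these sums were 4278 and 5185, in the fit with inputs. The part of these cells in the members' changes was not tested. In bulk libraries, a change in the number of cells of a type and a change in RNA per cell cannot be told apart.

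Between P7 and P21, nearly all members rose in Neurod1 TRAP. Summed over all 83, they reached 15030 ± 494 scaled CPM at P7, then 24060 ± 895 at P12 and 38750 ± 2410 at P21 (mean ± SD, n = 5 each), beside 11120 ± 963 in Math1 TRAP at P7 (n = 4). As a share of all counts in the table, this was 1.56% ± 0.04, 2.46% ± 0.10 and 3.56% ± 0.19, and 1.15% ± 0.07 in Math1 TRAP. No library of an age overlapped the next age, since the sums ran from 14300 to 15630 at P7, 23010 to 25030 at P12 and 35670 to 41260 at P21. Complex IV grew most, from 3061 ± 147 to 11640 ± 1008, and complex II least, from 649 ± 21 to 1051 ± 22.

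**Figure D1:**
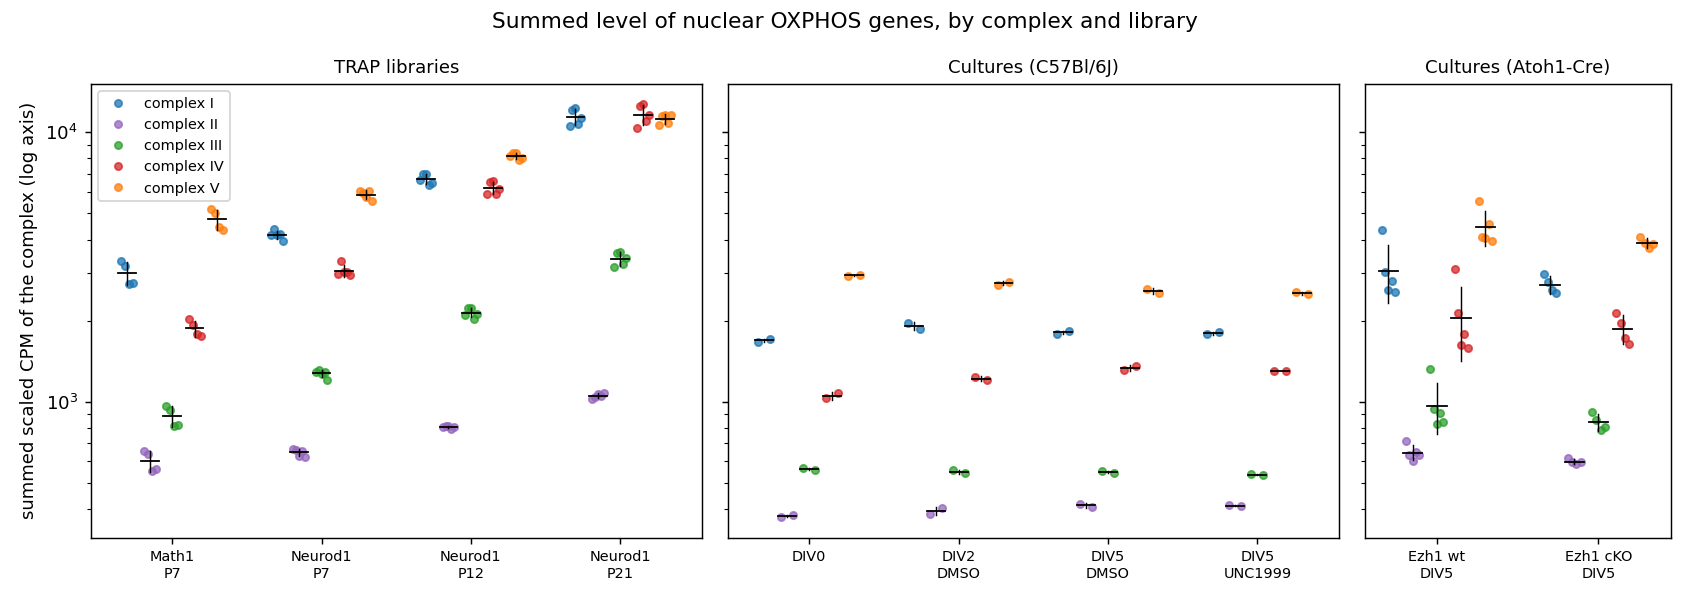
Summed scaled CPM of the members of each complex in every library (points, log axis), in 3 panels that were scaled separately. The Neurod1 TRAP sums of all 83 members rise from 15030 at P7 to 38750 at P21, and the sums of the DIV0, DMSO and UNC1999 cultures lie between 6556 and 6848.

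Of the 79 members tested in TRAP, 76 were higher at P21 than at P7 and 2 were lower by edgeR's quasi-likelihood test with Benjamini-Hochberg adjustment at 0.05. Over all genes tested, 38.9% were higher and 42.5% lower. The members' median log2 fold change was 1.45, a 2.74-fold rise, against -0.05 for all genes. The remaining 4 members, Cox6a2, Cox7b2, Cox8b and Cox8c, had too few counts to be tested, and Cox7a2l was not called. By complex, the medians were 1.45 for I (35 higher, 1 lower), 0.71 for II (4 higher), 1.53 for III (8 higher), 1.88 for IV (13 of 14 higher) and 1.31 for V (16 higher, 1 lower). Scaled by library size alone, 75 were higher and 2 lower, while the median of all genes moved by -0.17.

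In complex I, the accessory subunits, which surround the catalytic core, had a median log2 fold change of 1.51 (29 of 29 higher), and the 7 core subunits of 0.90 (6 higher, 1 lower). Ndufa4, first described with complex I and later as a subunit of complex IV, had P7 levels of 375, 429, 404, 385 and 381 scaled CPM, P12 levels of 850, 927, 928, 851 and 870, and P21 levels of 1360, 1600, 1593, 1448 and 1503. Every P12 library was above every P7 library and below every P21 library, and the log2 fold change from P7 to P21 was 1.93 ± 0.08 (SE, adjusted p = 3.3e-15). Ndufa1, an accessory subunit on the X chromosome, changed by 2.17 ± 0.08 and Ndufa13 by 2.14 ± 0.07, the largest rises of the complex. Among core subunits, Ndufs7, which holds the last iron-sulfur cluster before coenzyme Q, had the largest rise, 1.95 ± 0.05, from 89.5–101 to 334–381 scaled CPM without overlap.

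Ndufs1, the largest core subunit and carrier of several iron-sulfur clusters, went the other way. Its P7 libraries held 112, 87.7, 111, 101 and 93.8 scaled CPM, its P12 libraries 106, 90.3, 92.5, 107 and 106, and its P21 libraries 99.6, 90.9, 81, 90.6 and 89.9. The ages overlapped, and the log2 fold change of -0.16 ± 0.07 passed the threshold only just (adjusted p = 0.047). It no longer passed under 11 of 16 alternatives, with adjusted p from 0.00024 to 0.25 and values from -0.33 to -0.09. Ndufv1, which binds NADH, rose by 0.81 ± 0.08, from 133–139 to 230–251 scaled CPM.

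Ndufs5, an accessory subunit of the intermembrane side, was the least reproducible member. At P7 it stood at 67, 70.1, 122, 67.3 and 62.8 scaled CPM, at P12 at 213, 231, 125, 26 and 27.2, and at P21 at 361, 230, 424, 208 and 217. The P12 libraries lay on both sides of the P7 range, and P12 against P7 was not called. P21 was higher than P7 (1.89 ± 0.52, adjusted p = 0.0034), while the rise from P12 to P21 (1.22 ± 0.51, adjusted p = 0.048) was lost under 10 of 16 alternatives. Of the 75-base windows of its transcript, 24.1% are also in another gene, and the processed pseudogene BC002163 shares the most. Whether reads were split between the copies, and any part of this in the spread, was not tested. In all, 36 members share at least 1 such window with another gene, and 16 share over 20%. Those 16 had a median log2 fold change of 1.24 from P7 to P21 (16 higher), and the other 63 one of 1.49 (60 higher, 2 lower).

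The 4 genes of complex II rose least as a group. Sdha, the flavoprotein that oxidizes succinate, held 199, 182, 200, 183 and 192 scaled CPM at P7, then 247, 224, 242, 259 and 263 at P12 and 333, 306, 300, 332 and 322 at P21, a log2 fold change of 0.74 ± 0.07 (adjusted p = 1.6e-09) with no overlap between ages. The membrane anchor Sdhc changed by 0.87 ± 0.06 and Sdhd by 0.69 ± 0.06. Sdhb, the iron-sulfur subunit, changed by 0.43 ± 0.07, from 152–170 to 205–232 scaled CPM.

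Complex III divided by the size of its proteins. The core proteins Uqcrc1 and Uqcrc2 and the Rieske iron-sulfur protein Uqcrfs1 had a median log2 fold change of 0.45, and the 5 small subunits one of 1.80. Uqcrh, the hinge protein that contacts cytochrome c1, held 204, 198, 193, 204 and 187 scaled CPM at P7, then 370, 403, 403, 339 and 356 at P12 and 617, 716, 762, 651 and 695 at P21 (1.80 ± 0.10, adjusted p = 9.3e-14), without overlap. Uqcr11 changed by 2.05 ± 0.09 and Uqcrq by 1.86 ± 0.08. Uqcrfs1 changed by 0.45 ± 0.05 and Uqcrc2 by 0.34 ± 0.05, both with P21 libraries above all P7 libraries. Uqcrc1 lay between them and the small subunits, at 0.94 ± 0.04.

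Complex IV had the largest rises. Cox8a, the widespread form of subunit VIII, held 339, 389, 343, 308 and 345 scaled CPM at P7, then 1164, 1291, 1308, 1186 and 1271 at P12 and 2086, 2779, 2754, 2315 and 2383 at P21. Each age lay above the one before without overlap, and the log2 fold change from P7 to P21 was 2.84 ± 0.08 (adjusted p = 2.9e-18). Cox5b, a subunit on the matrix side, changed by 2.21 ± 0.07, Cox6a1 by 2.06 ± 0.07 and Cox6c by 2.00 ± 0.07. Cox4i1, the widespread form of the largest nuclear subunit, changed by 1.94 ± 0.07, from 525–613 to 1855–2346 scaled CPM. Cox5a changed least among the abundant subunits other than Cox7a2l, at 1.08 ± 0.07.

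Cox7a2l, known as a factor that joins complexes III and IV rather than a plain subunit, was the tested member without a call. It held 274, 302, 252, 284 and 260 scaled CPM at P7, then 239, 274, 297, 241 and 234 at P12 and 253, 339, 344, 247 and 255 at P21, with overlap at all ages (0.07 ± 0.09, adjusted p = 0.51). Of its 75-base windows, 15.3% are in another gene.

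The widespread forms carried the rise in complex IV. Per kilobase of transcript, Cox4i1 reached 2749 ± 273 scaled CPM per kb at P21 and Cox4i2, known from lung, 2.42 ± 0.92, each over its longest transcript. Cox6a1 reached 2512 ± 199 per kb, and Cox6a2, known from heart and muscle, 7 counts over 5 libraries. Cox8a reached 4479 ± 541 per kb, and Cox8b 27 counts over 5 libraries. Cox7a2 reached 1082 ± 65 per kb and Cox7a1, the muscle form, 8.37 ± 1.98. Cox6b1 reached 1410 ± 106 per kb and the testis form Cox6b2 4.54 ± 1.40 over its longest transcript. Cox8c had 1 count in the 5 P21 libraries and none at P7 and P12, and Cox7b2 had 27 counts at P21.

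Some of these low forms changed within their low range. Cox4i2 held 0.284 to 0.424 scaled CPM at P7, then 3.34 to 4.86 at P12 and 1.24 to 2.73 at P21, so it rose by 3.55 ± 0.26 on the log2 scale and then fell by 1.21 ± 0.21 (adjusted p = 7.6e-11 and 3.1e-05), with no overlap between ages. In the inputs it was 1.4, 2.55 and 3.15 at the 3 ages. Cox7a1 rose from 0.213–0.707 to 2.39–4.30 scaled CPM (2.81 ± 0.28), beside 1.03 in the P7 input and 3.005 in the P21 input. Cox6b2 changed by 0.57 ± 0.19 with overlap between ages.

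In complex V, the small membrane subunits had a median log2 fold change of 1.65 and the peripheral stalk subunits (Atp5pb, Atp5h, Atp5j and Atp5o) 1.19. The F1 subunits (Atp5a1, Atp5b, Atp5c1, Atp5d and Atp5e), which include the head where ATP is made, had 0.75. Atp5md changed by 1.80 ± 0.11 and Atp5k by 1.79 ± 0.09, the largest rises of the complex. Atp5b, the catalytic beta subunit, held 1171, 1129, 1151, 1120 and 1099 scaled CPM at P7, then 1592, 1530, 1570, 1588 and 1616 at P12 and 1864, 1819, 1845, 1981 and 2040 at P21 (0.75 ± 0.05, adjusted p = 7.1e-12).

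Atp5a1, the alpha subunit that alternates with beta in the same head, fell. It held 1140, 1079, 1055, 1125 and 1038 scaled CPM at P7, then 1041, 999.6, 1019, 1065 and 1058 at P12 and 902, 963, 880, 863 and 873 at P21. Every P21 library was below every P7 and P12 library, and the log2 fold change from P7 was -0.28 ± 0.05 (adjusted p = 5.4e-05), between -0.45 and -0.21 under 16 alternatives, all of them past the threshold. In the inputs it was 824, 645 and 589 scaled CPM in order of age.

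The c subunit, which forms the rotating ring, is made from 3 genes for the same mature protein. Atp5g1 held 185, 186, 183, 195 and 179 scaled CPM at P7, then 410, 406, 375, 370 and 384 at P12 and 569, 709, 634, 577 and 653 at P21 (1.76 ± 0.06, adjusted p = 4.5e-17). Atp5g3 rose with no overlap too, from 465–524 to 673–741 and 921–1031 scaled CPM (0.96 ± 0.06). Atp5g2 held 174, 196, 169, 192 and 190 at P7, 164, 177, 184, 159 and 162 at P12, and 228, 284, 261, 227 and 237 at P21, so it was not called at P12 (-0.12 ± 0.07) and was higher at P21 (0.43 ± 0.07, adjusted p = 9.6e-06). Of the windows of Atp5g2, 86.9% are shared with another gene, so its level is uncertain. The order of the 3 genes per kb was not settled, because the principal transcripts of Atp5g1 differ in length from 596 to 4715 bases.

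**Figure D2:**
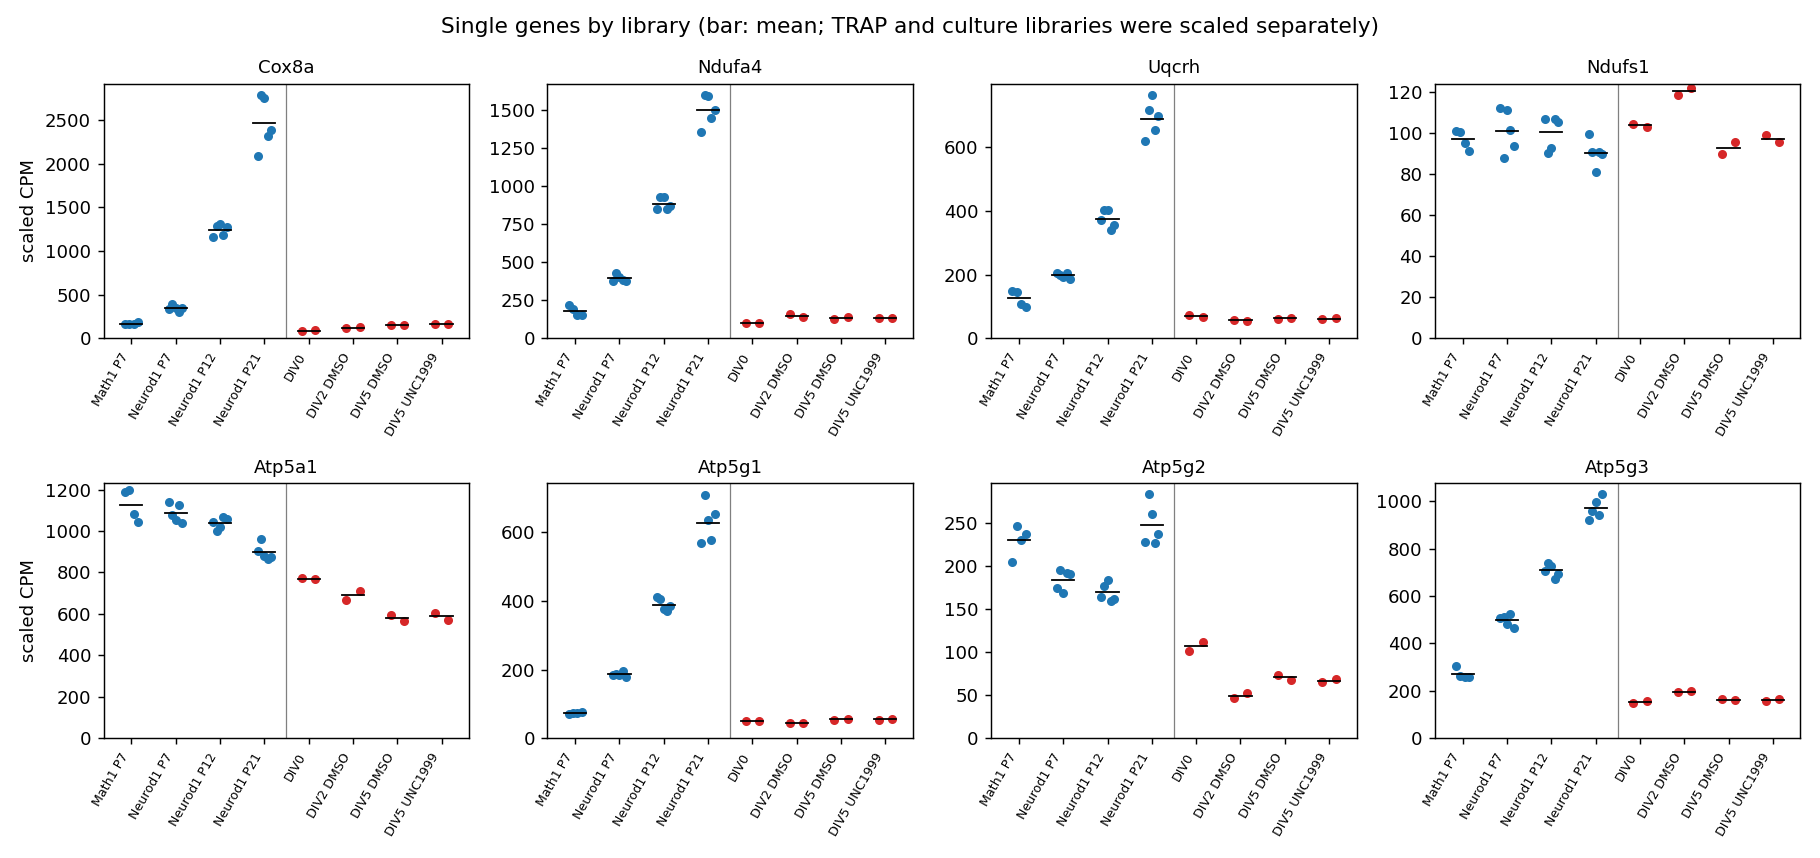
Scaled CPM of 8 members in every TRAP and culture library (points, linear axes from 0, bar at the group mean). Cox8a, Ndufa4 and Uqcrh rise at each age in TRAP, Ndufs1 and Atp5a1 do not, and in culture Atp5g2 falls from 102–112 to 46.2–52.4 by DIV2.

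The rise was spread over both intervals. From P7 to P12, 74 of 79 members were higher and 0 lower (edgeR's quasi-likelihood test, with 0 also by DESeq2, beside 31.5% and 36.7% of all genes), with a median log2 fold change of 0.69. All 74 members with an unadjusted p under 0.05 were those called. From P12 to P21, 73 were higher and 2 lower (Atp5a1 and Cox4i2), with a median of 0.73, beside 32.4% and 32.7% of all genes. Scaled by library size alone, 71 were higher and 3 lower, and of all genes called 35.7% were higher rather than 49.8%. Cox8a took the larger step early, 1.85 ± 0.08 from P7 to P12. Ndufs7 took it late, 1.21 ± 0.05 from P12 to P21. These 2 comparisons share the P12 libraries. Uqcrfs1 (0.14 ± 0.05) and Sdhb (0.16 ± 0.07) were called by P12 although their libraries overlapped, with adjusted p of 0.014 and 0.042.

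Members with short transcripts changed more. The transcripts ran from 360 to 4715 bases, with a median of 765. Up to 1000 bases the median log2 fold change from P7 to P21 was 1.62 (47 members), and above it 0.89 (32 members), and across the 79 members Pearson's r with log2 length was -0.47 and Spearman's rho -0.48. These are correlations across genes, which are not independent replicates. Other genes of up to 700 bases had a median of 0.24 (222 genes) where the 30 members of that length had 1.64, and other genes of 1500 to 3000 bases 0.06 (4690) where 15 members had 0.81. Of genes with several principal transcripts the longest was used. The class of 3000 to 5000 bases (3 members, median 1.56) holds Atp5g1 and Ndufb2, whose shortest principal transcripts are 596 and 455 bases, and Sdhc, which has 1 principal transcript of 3171 bases and changed by 0.87. The cytosolic ribosomal proteins, also short (median 878 bases), had a median of -0.28, with 5 of 79 higher and 45 lower, and the mitochondrial ribosomal proteins 0.38, with 56 of 78 higher and 4 lower. The part of transcript length in the members' rise was not tested.

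**Figure D3:**
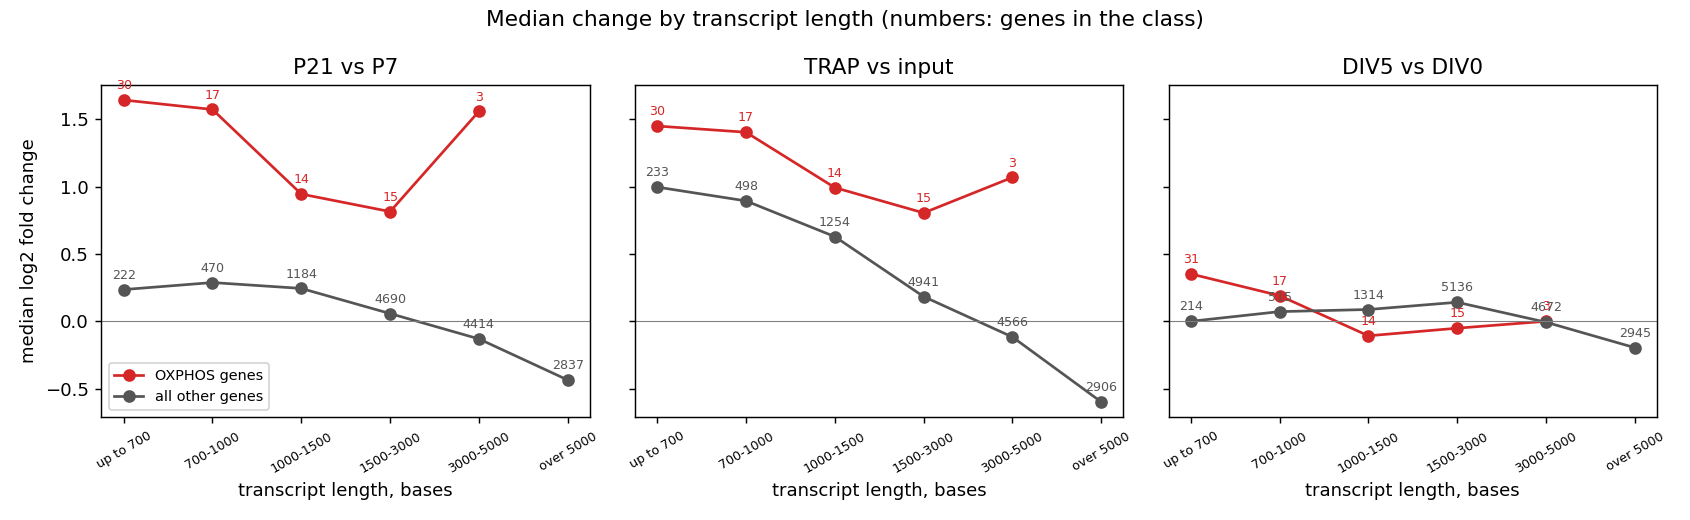
Median log2 fold change of members and of other genes by transcript length for P21 against P7, Neurod1 TRAP against input, and DIV5 against DIV0. At every length with members, their median lies above that of other genes in the first 2 panels, as with 1.64 against 0.24 up to 700 bases for P21 against P7.

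Other genes of the pathway were read from lists. Among 8 tested electron carriers and subunits outside the naming rule, 4 were higher and 2 lower at P21, and cytochrome c itself, Cycs, rose by 1.51 ± 0.07 from 296–331 to 823–965 scaled CPM. Cyc1, the cytochrome c1 of complex III, rose by 1.20 ± 0.06. The assembly factors rose in part: 11 of 15 for complex I with 2 lower, 4 of 4 for II, 6 of 6 for III, 17 of 20 for IV with 1 lower, and 2 of 4 for V. Ecsit (1.83 ± 0.06), for complex I, and Cox14 (2.04 ± 0.11) and Higd2a (1.68 ± 0.07), for complex IV, were among the largest. Their medians, 0.32, 0.56, 0.89, 0.80 and 0.13, were below those of the subunits of the same complex.

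Regulators known to act on these genes did not rise together: of 19, 4 were higher and 10 lower at P21. Esrra, an estrogen-related receptor, held 45.9–49.3 scaled CPM at P7, then 93.9–104 at P12 and 167–201 at P21 (1.96 ± 0.07), and the coactivator Ppargc1b rose by 3.01 ± 0.22 from a low level. Esrrg fell by 2.03 ± 0.09, the ETS factor Gabpa by 1.91 ± 0.10 and Nrf1 by 1.06 ± 0.08. Tfam, which packages and transcribes mitochondrial DNA, was not called (0.01 ± 0.06). Of 17 genes of the citric acid cycle and pyruvate dehydrogenase, 11 were higher and 3 lower, with citrate synthase, Cs, falling by 0.63 ± 0.05. Of 26 genes of glycolysis, 19 were higher and 3 lower.

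At P7, the members were higher in Neurod1 TRAP, from differentiating cells, than in Math1 TRAP, from progenitors: 68 of 79 were higher and 3 lower, beside 36.5% and 35.8% of all genes, with a median log2 fold change of 0.58. The mouse line and the starting material (isolated progenitors or whole cerebellum) changed with the stage and cannot be told apart from it. Atp5g1 held 71.8, 72.9, 72.1 and 77.1 scaled CPM in Math1 TRAP, below the 179 to 195 of Neurod1 TRAP (1.34 ± 0.07, adjusted p = 1.5e-13). Ndufv3, an accessory subunit, held 40.9 to 43.9 against 92.1 to 106 (1.24 ± 0.08), and Cox8a 164, 164, 164 and 183 against 308 to 389 (1.03 ± 0.08). The 3 lower members were Ndufv1 (-0.51 ± 0.08), Sdha (-0.49 ± 0.07) and Atp5g2 (-0.32 ± 0.07), called under all of 17 alternatives. None of the alternatives addressed windows shared with another gene, which are 86.9% of those of Atp5g2.

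The Math1 libraries did not form a tight group. Replicates 1 and 2 were both above replicates 3 and 4 for 62 of the 79 members (78.5%) and both below for 1, beside 30.1% and 29.2% of all 14759 genes tested. The members' median log2 ratio between these pairs was 0.27, with 2.53% over 2-fold higher, beside 0.00 and 3.64% for all genes. Atp5l held 137, 118, 59.8 and 55.8 scaled CPM, though 76.0% of its windows are in another gene, and Uqcrh 150, 145, 108 and 97.7. Against replicates 1 and 2 alone, 62 members were higher and 5 lower (median 0.43), and against replicates 3 and 4 alone 69 and 3 (median 0.75). The 3 lower members also differed among them, since Ndufv1 held 226, 219, 166 and 161 scaled CPM and 133 to 139 in Neurod1 TRAP. Both pairs stayed above all 5 Neurod1 libraries for Ndufv1.

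Neurod1 TRAP held more of the members than whole cerebellum did. Over the 3 ages, 75 of 79 were higher and 2 lower than the inputs, beside 36.6% and 41.2% of all genes, with a median log2 fold change of 1.29. The fit held a single TRAP effect common to all ages, with 1 input at each, although the gap differed by age. As a share of all counts the members were at 1.557% (mean) in TRAP and 1.18% in input at P7, and at 3.557% and 1.553% at P21. Uqcr11 (1.75 ± 0.16), Atp5l (1.73 ± 0.14), Ndufb2 (1.72 ± 0.13) and Ndufa4 (1.71 ± 0.13) were highest. The 2 lower members were the low forms Cox6b2 (-1.28 ± 0.19) and Cox7a1 (-0.63 ± 0.25, adjusted p = 0.031), and within P21 alone Cox7a1 was at 0.21. Ndufs1 did not differ by the test (0.10 ± 0.08, adjusted p = 0.21). Scaled by library size alone, 71 were higher and 4 lower, and of all genes called 25.6% were higher rather than 47.1%, with the median of all genes moved by -0.40.

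By their medians, other short transcripts were also higher in TRAP than in input. Of 233 other genes of up to 700 bases, 143 were called higher and 44 lower. Other genes of up to 700 bases had a median log2 fold change of 1.00 and the members of that length 1.45, and other genes of 1500 to 3000 bases 0.18 and the members 0.80. Of the cytosolic ribosomal proteins 78 of 79 were higher (median 1.17), as were 78 of 78 mitochondrial ribosomal proteins (0.96). What the pull-down itself adds for short mRNAs cannot be told apart from the cell type in this contrast.

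In whole cerebellum the members rose less with age. The sums over all members were 9428, 10310 and 12570 scaled CPM in the single inputs of the 3 ages, in order, beside 15350 ± 477, 25260 ± 1100 and 40340 ± 2536 in TRAP on the same scale. The ratio of P21 to P7 input had a median of 0.44 on the log2 scale, with 74 of 79 members above 0, and the ratio of TRAP means was larger for 77 members (median 1.48). Cox8a held 206, 380 and 566 scaled CPM in the inputs. With 1 library per age the input ratios have no replicate check.

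In culture the members did not rise as a group in scaled CPM. Summed scaled CPM of all members was 6575 and 6678 at DIV0, 6790 and 6848 at DIV2 and 6662 and 6690 at DIV5. As a share of all counts they held 0.6353% and 0.6454% at DIV0, 0.6511% and 0.6396% at DIV2, and 0.6895% and 0.7049% at DIV5. By that measure they rose by DIV5 without overlap, so the flat result depends on the scaling. The share of complex V went from 0.2834% and 0.2854% at DIV0 to 0.2701% and 0.2673% at DIV5. Complex IV rose from 1029 and 1080 at DIV0 to 1308 and 1356 at DIV5, and complex V fell from 2933 and 2953 to 2526 and 2621. From DIV0 to DIV5, 32 of 80 tested members were higher and 19 lower, beside 40.2% and 38.2% of all genes, with a median log2 fold change of 0.09. By complex, 15 were higher and 8 lower in I, 1 and 1 in II, 4 and 3 in III, 11 and 1 in IV, and 1 and 6 in V. Those higher in IV include the low forms Cox4i2, Cox6a2, Cox6b2 and Cox7a1. Their mean levels over the culture libraries were 1.80, 0.42, 2.67 and 0.45 scaled CPM. Over the same days 14 of 16 mature granule markers rose and 20 of 20 cell cycle genes fell, while summed microglial markers went from 114–119 to 899–933 scaled CPM (11 of 11 higher) and those of Bergmann glia and astrocytes from 906–923 to 2372–2388 (8 of 11 higher and 3 lower). Their part in the members' values was not tested.

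Ndufv3 made the largest rise among abundant members in culture. It held 24.1 and 25 scaled CPM at DIV0, 73.5 and 71.7 at DIV2, and 68.1 and 70.7 at DIV5 (1.50 ± 0.06, adjusted p = 2.8e-11), so the rise came by DIV2. Cox6a1 went from 120 and 124 to 213 and 194 and then 211 and 227 (0.85 ± 0.06), and Cox8a from 87.8 and 91 to 120 and 128 and then 156 and 156 (0.80 ± 0.05). Cox6b2 held 0.649 and 0.944 at DIV0, 0.682 and 0.463 at DIV2 and 5.27 and 5.43 at DIV5 (2.70 ± 0.24), and Cox6a2 had 0 and 1 counts at DIV0 and 20 and 21 at DIV5.

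Others fell in culture. Atp5g2 held 102 and 112 scaled CPM at DIV0, 46.2 and 52.4 at DIV2, and 73.9 and 67.8 at DIV5, so it fell by 1.12 ± 0.08 and then rose by 0.53 ± 0.08 on the log2 scale. Ndufa12 changed by -0.64 ± 0.09 from DIV0 to DIV5, Atp5e by -0.57 ± 0.10, Uqcrc2 by -0.42 ± 0.05 and Atp5a1 by -0.41 ± 0.05 (771 and 768, then 669 and 710, then 593 and 565). Of the windows of Ndufa12, 22.0% are in another gene, and of those of Atp5g2 86.9%, so the level of Atp5g2 is uncertain here too. Ndufs1 went from 105 and 103 to 119 and 122 and back to 89.7 and 95.6.

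By interval, 31 members were higher and 16 lower at DIV2 than at DIV0, beside 36.4% and 35.0% of all genes (median 0.11), and 17 and 15 by DESeq2. From DIV2 to DIV5, 18 were higher and 19 lower, beside 31.1% and 35.7% (median 0.00). Scaled by library size alone, 33 were higher and 7 lower, and of all genes called 57.4% were higher rather than 46.6%, so the balance of directions after DIV2 differed between the scalings.

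Set against the change in the animal, the culture change was smaller for most members. The difference between them (DIV5 minus DIV0, less P21 minus P7) was below 0 for 73 of 80 members and above 0 for 2 by edgeR's quasi-likelihood test, beside 28.0% below and 38.3% above among all genes, with a median of -1.27 on the log2 scale. The comparison sets total RNA of cultured cells against TRAP RNA, and 5 days in culture against the longer span from P7 to P21. The cultures began with freshly isolated granule cells, and the TRAP series with Neurod1 cells of P7 cerebellum. Method, setting, duration and starting stage cannot be told apart. In TRAP the members' median was 0.69 from P7 to P12 and 1.45 from P7 to P21. Cox8a (-1.97 ± 0.15), Uqcrh (-1.89 ± 0.11), Cox5b (-1.84 ± 0.11) and Ndufs7 (-1.80 ± 0.11) had the largest gaps. The 2 members above 0 were Cox6b2 (2.20 ± 0.40) and Cox6a2, whose counts at P7 and P21 were at most 10 and whose fitted value depends on the prior count. Ndufs1, Ndufv3, Atp5a1, Cox7a2l and Cox4i2 were not called different.

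Members that rose more in the animal tended to rank higher in culture as well. Across the 79 members tested in both, Pearson's r between the log2 fold changes was 0.46 and Spearman's rho 0.65, as a description over genes from libraries that the 2 changes do not share. Both changes were also smaller for longer transcripts (Spearman's rho with length -0.48 in the animal and -0.40 in culture). The part of length in the correlation was not tested, and no correlation over all genes is set beside it. Of the 76 that rose in the animal, 31 rose in culture, 16 fell and 29 were not called. Those that rose in both include Cox8a, Cox6a1 and Ndufv3, and Atp5g2 and Ndufa12 are among the 16.

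**Figure D4:**
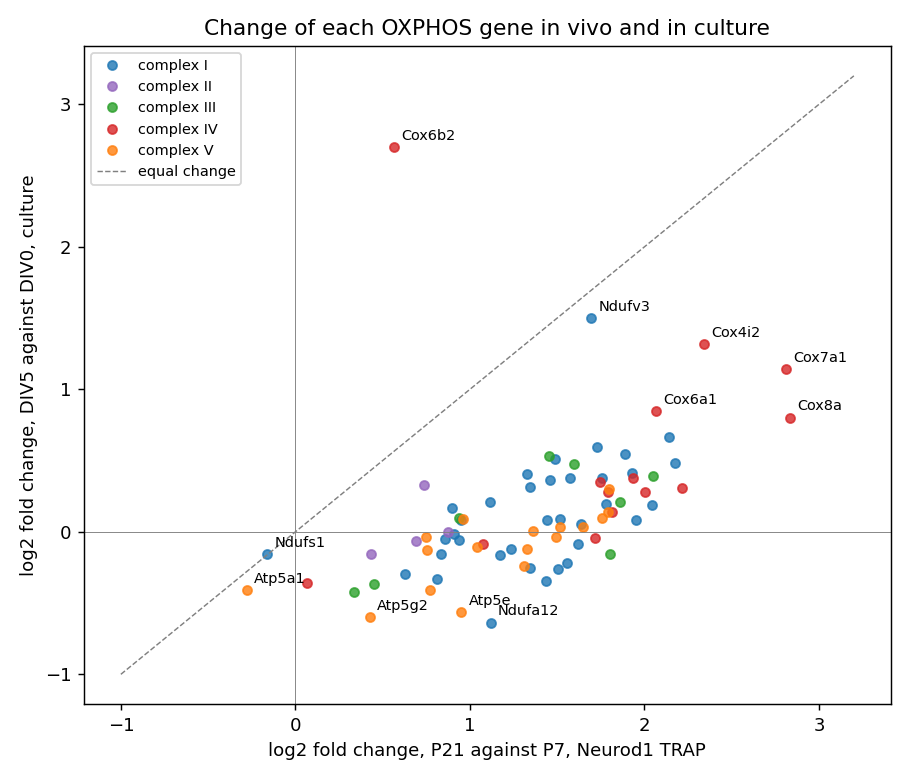
Log2 fold change of each member from P7 to P21 in Neurod1 TRAP (x axis) against that from DIV0 to DIV5 in culture (y axis), coloured by complex. Most points lie to the right near y = 0, with Cox8a at 2.84 and 0.80 and Ndufv3 at 1.70 and 1.50.

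UNC1999 changed no member past the threshold. Of 80 tested, 0 were higher and 0 lower at DIV5 by edgeR's quasi-likelihood test, against 6.36% and 5.53% of all genes, 4 members had an unadjusted p under 0.05, and DESeq2 called 0. The median log2 difference was -0.03, and sums of all members were 6662 and 6690 scaled CPM with DMSO and 6556 and 6579 with UNC1999. Sdha held 225 and 219 scaled CPM with DMSO and 222 and 219 with UNC1999, and Cox8a 156 and 156 against 167 and 166 (0.10 ± 0.05, adjusted p = 0.27). Among members above 10 scaled CPM, Cox7b had the largest difference, 53.7 and 54.3 against 45.5 and 48.6 (-0.20 ± 0.08, adjusted p = 0.11). In the same fit 11 of 16 mature granule markers rose and 9 of 11 Bergmann glia and astrocyte markers fell.

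In the Ezh1 cultures, the targeted gene was measured first. Ezh1 held 42.7, 43.3, 49.3, 47 and 39.4 scaled CPM in Ezh1 wt and 35.4, 36.6, 35.1 and 33.3 in Ezh1 cKO libraries, a log2 difference of -0.34 ± 0.09 without overlap (adjusted p = 1.0 in edgeR's quasi-likelihood test). Which exons were removed is not given in the sources used here, so gene counts need not show the full extent. Ndufa1, Ndufb11 and Cox7b, on the X chromosome, are blank in these libraries, which left 77 members tested. In this unpaired fit none was called, nor was any of the genes tested (0.0%). At an unadjusted p under 0.05 there were 0 members and 169 genes, and DESeq2 called 0 members and 1 gene. The median of the members was -0.18, with 75 of 77 below 0, beside -0.01 for all genes. Other short genes shifted as far: up to 700 bases their median was -0.20 and that of the members -0.21. At 1500 to 3000 bases other genes had -0.05 and the members -0.16. The part of transcript length in these values was not tested.

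Ezh1 wt replicate 1 stood apart. It had a summed level of 15060 scaled CPM, the other 4 wt libraries 9583 to 10820 and the 4 cKO libraries 9414 to 10740, and without it the median of the unpaired fit was -0.04. Without it, 1 wt and 2 cKO libraries of numbers 1 and 2 remain, which differ from the other numbers. As a share of all counts, the members were above the same-numbered cKO library in 4 of 4 wt libraries, at 1.438% against 1.055%, 1.051% against 1.004%, 0.979% against 0.956%, and 1.079% against 0.956%. Cox8a held 398, 253, 230, 266 and 222 in wt and 289, 263, 261 and 263 in cKO. Marker sums of astrocytes ran from 3048 to 13550 in wt and from 5861 to 13700 in cKO, and those of microglia from 67.5 to 787 and from 83.7 to 674, and their part was not tested.

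The Ezh1 libraries also stood apart by number in both genotypes. Libraries numbered 1 and 2 (4 libraries) were set beside those numbered 3 to 5 (5 libraries), and the members had a median log2 ratio of 0.34, with 14 of 77 members (18.2%) over 2-fold higher. Over all 14461 genes tested the median was 0.03, with 13.7% over 2-fold higher and 4.9% over 2-fold lower. Atp5g2 held 219, 133, 26.6, 23.8 and 31.2 scaled CPM in wt and 141, 148, 25.1 and 28.5 in cKO, a ratio of 5.93 between the numbers with no overlap. Atp5l followed at 3.63, Cox7a2l at 3.0 and Ndufs5 at 2.9, while Sdha was at 1.04 and Atp5b at 0.82. The 16 members that share over 20% of their windows with another gene had a median log2 ratio of 0.83 between the numbers, and the 42 that share none one of 0.26. The labels give no reason for the split. Same-numbered libraries deviated together (r from 0.85 to 0.92 in 4 pairs), but each of these pairs lies on 1 side of the split. The other 16 pairs had a median r of -0.82, so r cannot tell pairing by number from the split. With the number as a replicate block 0 members were called and the median was -0.21. In that fit 24 members had an unadjusted p under 0.05. The count over all genes in that fit is not given here, so the 24 are not read as a result about the members. Within numbers 1 and 2 the median was -0.37 and within 3 to 5 it was -0.07, alternatives added after the data were seen.

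The UNC1999 effect did not differ from the Ezh1 cKO effect for any member by edgeR's quasi-likelihood test in an unpaired fit. Among 77 members and all genes tested, 0 and 0.0% were called, 0 members and 247 genes had an unadjusted p under 0.05, and DESeq2 called 0 members and 7 genes. The median difference was 0.16 on the log2 scale, and the standard errors of the members ran from 0.12 (Ndufs1) to 1.39 (Atp5g2), with a median of 0.30.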

How the data were processed

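The deposited values are estimated counts per gene that the authors made from single-end poly(A) RNA-seq of 75 bases. Salmon 0.8.2 and mm10 are named per the submitters' processing notes, and the annotation is not given in the sources used here. Estimated counts were rounded, genes without a symbol (55, mean 0.0361% of counts) were kept, and 1041 genes that are blank in the Ezh1 libraries were left out there. Groups were taken from the labels. Genes passed filterByExpr of edgeR 4.0.16 (minimum count 10, minimum total 15), were scaled by TMM and tested two-sided with edgeR's robust quasi-likelihood test, with Benjamini-Hochberg adjustment at 0.05 over all genes tested, in R 4.3.3. One fit held the 4 TRAP groups, another the cultures and another the Ezh1 cultures, and inputs entered only the fit with TRAP. The fits were tested on simulated data. Alternatives were DESeq2 1.42.0, other scalings, no filter, only the groups compared, a replicate block, subsets of libraries and leaving out each replicate. The members and gene lists were chosen with earlier results of these data known. Genes were named by set anchors, paralog sets, and the 2 largest changes either way per complex, with further examples chosen after their values were seen. Same-numbered libraries met the rule for pairing only in the Ezh1 cultures, where all 4 pairs deviated together (r over 0.1). There the rule cannot tell pairing by number from the split between numbers 1 and 2 and numbers 3 to 5. The main fits of the Ezh1 cultures, alone and with UNC1999, were nevertheless unpaired. The pairing entered only as a replicate block among the alternatives. The DMSO and UNC1999 libraries (r = 0.19) have 2 pairs, fewer than the 3 required. Intervals given as ± SE or SD cover these libraries only. Protein sequences were not used here.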

Additional observations from a re-analysis of the deposited data

Results flagged for a closer look

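Of 132 groups of 4 to 10 libraries examined, 14 had a library far from the rest of its group, and chance gives about 1 in 20. Sums and single members were read from the same libraries, so the groups are not independent and the 14 cannot be judged by that rate. Most belonged to Ezh1 wt replicate 1, which stood above the other wt libraries for all members summed (15060 scaled CPM), for complex I (4342) and complex III (1324), and for Ndufv1 (178.9), Ndufa4 (316.6), Uqcrc1 (267.3), Uqcrh (176.5) and Cox8a (397.6). Ezh1 cKO replicate 1 was also apart for Cox8a, at 288.8. In Neurod1 TRAP at P7, replicate 2 was apart for complex IV (3317) and Cox4i1 (613), and replicate 3 for Ndufs5 (122.4). In Math1 TRAP, replicate 4 was apart for Cox8a (183.3) and replicate 1 for Atp5g3 (305.4).

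The change in culture differed from the change in the animal by the test of the difference itself for 73 members below and 2 above.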

How the results depend on the processing

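From P7 to P21, 1 member rather than 2 was lower with DESeq2 size factors, with the DESeq2 test, with no filter and with only the groups compared, and 1 to 2 when a replicate was left out. Against Math1 replicates 1 and 2 alone 5 members were lower in Neurod1 TRAP. Against input, 4 were lower by library size alone and 1 within P7. At DIV2, 17 were higher by DESeq2 and 14 to 21 without a replicate. From DIV2 to DIV5, library size alone gave 33 higher and 7 lower, DESeq2 11 lower, only the groups compared 10 lower, and leaving out a replicate 9 to 14 lower. Signs turned for C1qa against Math1 replicates 3 and 4 (0.60), for Cox7a1 against input within P21 (0.21), and by library size alone against input for Atpaf1 (-0.23), Ndufs1 (-0.29) and Sdhaf2 (-0.019). The cause was not tested. Of all counts compared, 24 moved past 1.5 times and 350 did not, and of the medians of the members 34 moved by over 1 SD between replicates and 153 did not. With a replicate block, 76 members were higher and 2 lower from P7 to P21, and the block changed no count of members by over 1.5 times. The cultures have 2 libraries per group, so left-out fits assume the lone library varies like the rest.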
